A study of Mus musculus with 12 samples.

Results

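The transcripts of 10 feedback inhibitors of MAP kinase signalling were followed in HDAC3-deficient and control LMPPs, CD115-CDPs and BM pDCs. The genes were taken by symbol and comprised 6 dual-specificity phosphatases (Dusp1, Dusp2, Dusp4, Dusp5, Dusp6 and Dusp10), 2 Sprouty genes (Spry1 and Spry2) and 2 Spred genes (Spred1 and Spred2). They were found among 17445 genes listed for LMPPs, 16821 for CD115-CDPs and 16896 for BM pDCs, and all 10 had a row in each table. Of the 10 genes, 8 were above the filter on low values in LMPPs, 8 in CD115-CDPs and 10 in BM pDCs.

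Growth factor and antigen receptors pass signals through RAS, RAF and MEK to the kinase ERK, while stress and inflammatory signals run through the related kinases JNK and p38. Dusp phosphatases remove the activating phosphates from these MAP kinases, and Sprouty and Spred proteins act higher up, at the membrane, where they hold back RAS and RAF. Most of these inhibitors are transcribed in response to the pathway that they dampen, so in haematopoietic cells their transcripts are commonly read together with those of other signal-induced genes.

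HDAC3-deficient cells came from Hdac3 fl/fl CreERT2 mice, which carry floxed Hdac3 alleles and a tamoxifen-inducible Cre expressed from the ubiquitous Rosa26 locus. Control cells came from Hdac3 fl/fl mice without Cre. All animals were C57BL/6, all received tamoxifen for 5 days, and cells were sorted 7 days later, so Cre activity and the loss of HDAC3 cannot be told apart by genotype. LMPPs are lymphoid-primed multipotent progenitors, CD115-CDPs are the CD115-negative common dendritic cell progenitors that give rise mainly to pDCs, and BM pDCs are the plasmacytoid dendritic cells of the bone marrow. Each of the 6 groups had 2 libraries, and no label says whether these were separate animals, so p-values measure the spread between libraries, which may be technical.

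Hdac3 itself, the deleted gene, was at 16.9 and 9.87 FPKM in HDAC3-deficient LMPPs, against 56.5 and 66.3 FPKM in control LMPPs. It was at 12.1 and 0.93 FPKM in HDAC3-deficient CD115-CDPs, against 58.2 and 39.6 FPKM in controls, and at 15.6 and 15.9 FPKM in HDAC3-deficient BM pDCs, against 38.9 and 37.8 FPKM in controls. FPKM counts fragments per kilobase of transcript, scaled to the mapped fragments of the library, so that levels can be set side by side between genes. Summed over a list of 10 pDC markers, libraries held 5051 to 5309 FPKM in HDAC3-deficient and 9569 to 9812 FPKM in control BM pDCs, while the progenitor marker Cd34 was at 577 and 523 FPKM in HDAC3-deficient and at 797 and 807 FPKM in control LMPPs. HDAC3-deficient CD115-CDP library 2 stood apart, with 11288 genes above 0 against 13684 to 15173 in the other CD115-CDP libraries, and control LMPP library 1 held 6412 FPKM of erythroid markers where the remaining LMPP libraries held 52.8 to 154.4 FPKM. Expected counts per BM pDC library came to between 18117748 and 18462220, whereas read depth is unknown for the progenitors.

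Dusp1, a nuclear phosphatase of p38, JNK and ERK and an immediate early gene, moved the most in LMPPs and moved the other way in BM pDCs. In HDAC3-deficient LMPPs it was at 237 and 154.0 FPKM, against 939 and 929 FPKM in control LMPPs, a mean of 195.5 ± 58.6 FPKM against 934 ± 7.07 FPKM (SD, n = 2 each). In HDAC3-deficient BM pDCs it was at 153 and 194 FPKM, against 81.8 and 78.1 FPKM in control BM pDCs. The genotypes thus did not overlap in either cell type, with the HDAC3-deficient libraries on the low side in LMPPs and on the high side in BM pDCs. The fall in LMPPs was 2.29 on the log2 scale, 4.78-fold in mean FPKM (log2 change -2.29 ± 0.21 SE, limma adjusted p = 9.88e-06). The rise in BM pDCs was 2.17-fold in mean FPKM (log2 change 1.26 ± 0.14 SE from counts, edgeR quasi-likelihood adjusted p = 0.000547). In CD115-CDPs Dusp1 was at 29.2 and 13.7 FPKM in HDAC3-deficient and 34.5 and 22.1 FPKM in control libraries, which overlapped (log2 change -0.45 ± 0.47 SE, limma adjusted p = 0.756). In these bulk samples, fewer cells of a type and less RNA per cell cannot be told apart.

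The 250 bases upstream of the annotated start are shown for Dusp1 and Dusp2, which rose in BM pDCs, and for Dusp10 and Spry1 (RefSeq, GRCm38.p6, 5′ to 3′ on the gene's strand). Dusp10 and Spry1 were the members that fell furthest there. Spry2 (log2 change 1.28), Spred1 (0.55) and Spred2 (0.87) also rose in BM pDCs and are not shown, so the sequences do not stand for all members that rose. Capitals mark exact matches, on either strand, to the cyclic AMP response element TGACGTCA, the E-box CACGTG and the GC box GGGCGG; the motifs were picked after the sequences had been looked at.
Dusp1, chr17:26508473-26508722, minus strand: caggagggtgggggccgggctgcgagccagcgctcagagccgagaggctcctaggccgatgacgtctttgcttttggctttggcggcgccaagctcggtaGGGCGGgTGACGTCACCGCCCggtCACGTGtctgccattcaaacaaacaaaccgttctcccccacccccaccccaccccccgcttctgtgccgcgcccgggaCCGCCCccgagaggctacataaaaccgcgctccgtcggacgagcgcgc
Dusp2, chr2:127335909-127336158, plus strand: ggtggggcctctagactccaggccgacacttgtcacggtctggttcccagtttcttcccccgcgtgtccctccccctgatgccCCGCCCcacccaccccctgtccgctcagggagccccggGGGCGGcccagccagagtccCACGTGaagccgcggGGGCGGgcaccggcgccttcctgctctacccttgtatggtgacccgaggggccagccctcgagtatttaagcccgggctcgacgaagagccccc
Dusp10, chr1:184034131-184034380, plus strand: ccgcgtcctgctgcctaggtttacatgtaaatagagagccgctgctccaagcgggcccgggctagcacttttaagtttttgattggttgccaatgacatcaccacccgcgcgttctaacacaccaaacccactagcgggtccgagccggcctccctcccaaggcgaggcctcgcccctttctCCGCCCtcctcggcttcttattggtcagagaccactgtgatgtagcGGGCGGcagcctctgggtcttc
Spry1, chr3:37639697-37639946, plus strand: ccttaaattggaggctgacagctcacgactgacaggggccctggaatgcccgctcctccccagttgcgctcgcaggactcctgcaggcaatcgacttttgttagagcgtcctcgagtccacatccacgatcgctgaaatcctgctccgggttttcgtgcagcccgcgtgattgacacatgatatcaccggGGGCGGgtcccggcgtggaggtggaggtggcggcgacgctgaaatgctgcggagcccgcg

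Of 9 members with a promoter in the RefSeq table (Dusp4 had none), the cyclic AMP response element occurred in the window of Dusp1 alone, starting 143 bases before its start, and 1.55% of 32817 promoter windows of this length held it. The E-box occurred in the windows of Dusp1 and Dusp2, starting 126 and 109 bases before the start, against 6.02% of all windows. The GC box occurred in 7 of the 9 windows, in all but those of Dusp6 and Spry2, against 32.7% of all windows. Of 2 further motifs searched, the AP-1 site TGACTCA occurred in 0 of the 9 windows, against 4.46% of all windows, and the CArG box in that of Dusp5, against 1.47%. In Dusp1 a GC box follows the cyclic AMP response element directly, and no motif overlaps another in the sequences shown. Of the members that rose in BM pDCs but are not shown, Spry2 had none of the motifs marked, and Spred1 and Spred2 had the GC box only. These matches describe letters in the window and are not evidence of a bound factor. Whether any motif goes with the direction of change was not tested.

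**Figure D1:**
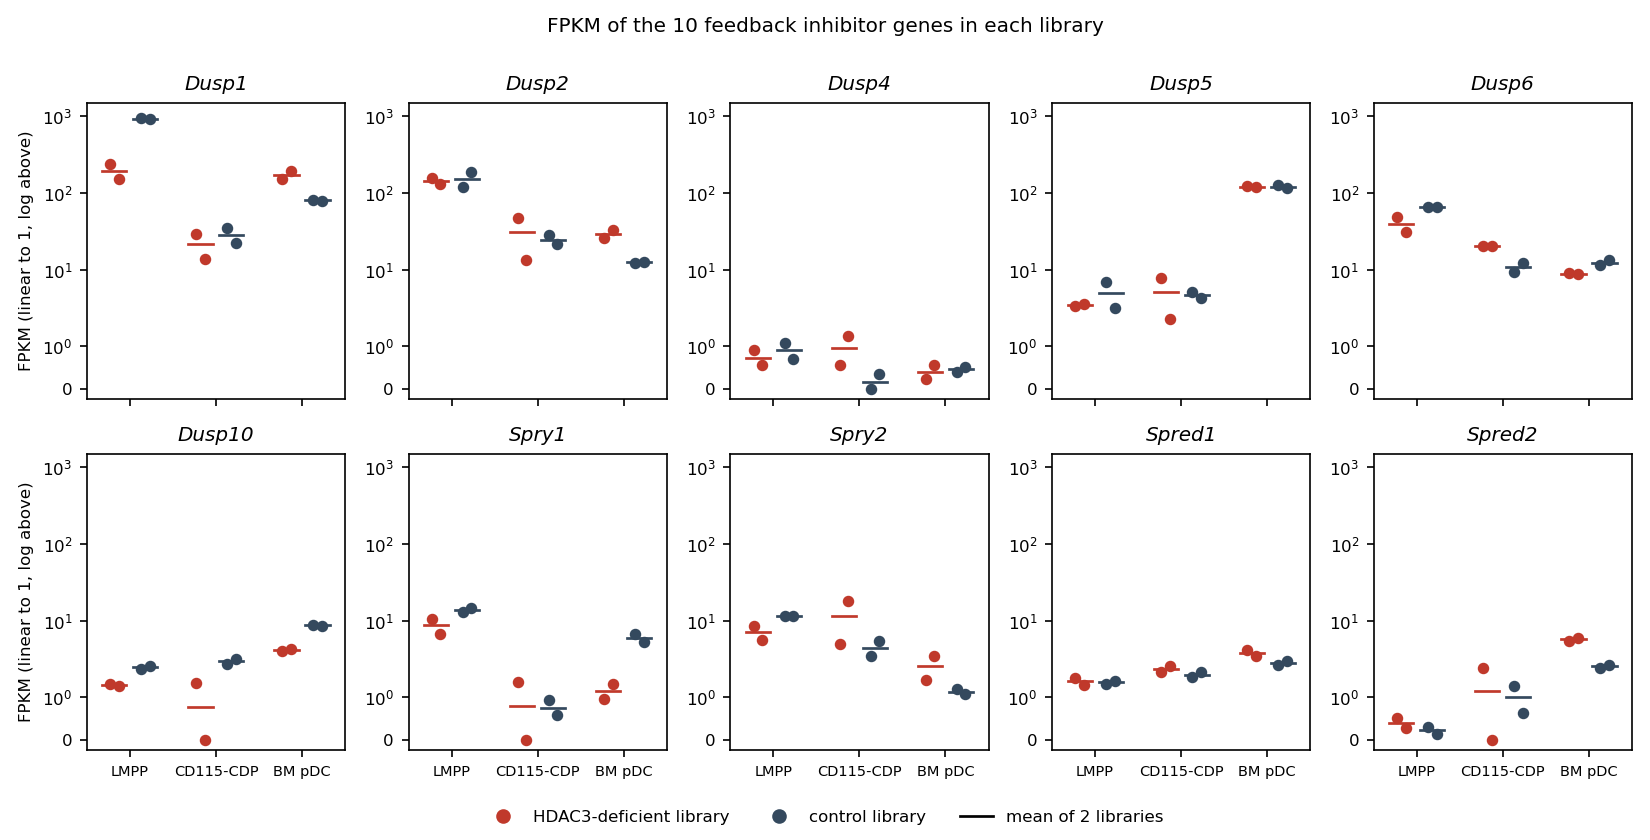
FPKM of each of the 10 genes (vertical axis, linear to 1 and logarithmic above) in the HDAC3-deficient (red) and control (dark) libraries of LMPPs, CD115-CDPs and BM pDCs, with each point a library and each bar the mean of 2 libraries. Dusp1 spans 154.0 to 939 FPKM in LMPPs, and Dusp5 is above 100 FPKM in BM pDCs while it stays at or below 7.87 FPKM in the other cell types.

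In LMPPs, 3 of the 8 members tested fell (Dusp1, Dusp6 and Spry2) and 0 rose, where 18.8% of all 11146 genes tested fell and 4.31% rose at an adjusted p below 0.05. The median log2 change of the 8 members was -0.63, beside -0.23 over all genes tested. In BM pDCs, 5 of 10 members rose (Dusp1, Dusp2, Spry2, Spred1 and Spred2) and 3 fell (Dusp6, Dusp10 and Spry1), where 21.6% of 12716 genes rose and 22.5% fell, and the members' median was 0.34 beside -0.01 over all genes. In CD115-CDPs, 0 of 8 members were called by limma, where 0.0% of 10832 genes rose and 0.0% fell; Dusp6 had an unadjusted p below 0.05, as did 976 of all genes.

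Because the median of all genes in LMPPs lay at -0.23, values of members there are also given relative to it: -2.05 for Dusp1, -0.50 for Dusp6 and -0.46 for Spry2. After rescaling by the median ratio, Dusp1 remained called, whereas Dusp6 (adjusted p = 0.117) and Spry2 (adjusted p = 0.147) lost their calls by limma, and the calls over all genes came to 863 that rose and 999 that fell, in place of 480 and 2096. The HDAC3-deficient libraries were both lower than either control for 5 of the 8 members in LMPPs and for 48.2% of all genes, and both higher for 0 of the 8 and for 17.6% of all genes.

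Dusp2, a nuclear phosphatase of activated immune cells, rose in BM pDCs and was not called elsewhere. It was at 25.9 and 32.9 FPKM in HDAC3-deficient BM pDCs, against 12.3 and 12.6 FPKM in controls, without overlap (2.36-fold, log2 change 1.38 ± 0.15 SE, edgeR adjusted p = 0.000432). In LMPPs it was at 157 and 133 FPKM in HDAC3-deficient libraries, within the range of the controls at 120.2 and 188 FPKM (log2 change -0.06 ± 0.20 SE, limma adjusted p = 0.848), and this value turned positive after median ratio scaling (0.19). In CD115-CDPs its HDAC3-deficient libraries, at 47.6 and 13.5 FPKM, fell on either side of the controls at 27.9 and 21.5 FPKM.

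Dusp5, a nuclear phosphatase that acts on ERK, was not called in any cell type and differed mainly between cell types. It was at 124 and 118 FPKM in HDAC3-deficient BM pDCs and at 128 and 115 FPKM in control BM pDCs (log2 change 0.13 ± 0.09 SE, edgeR adjusted p = 0.292). It was at 3.39 and 3.54 FPKM in HDAC3-deficient LMPPs and at 6.90 and 3.12 FPKM in control LMPPs. In CD115-CDPs it was at 7.87 and 2.28 FPKM in HDAC3-deficient libraries and at 5.08 and 4.28 FPKM in controls. In each cell type the genotypes overlapped.

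Dusp4, a further nuclear phosphatase of this family, was barely detected. It did not exceed 1.36 FPKM in any of the 12 libraries, was below the filter in LMPPs and CD115-CDPs, and rested on 10 and 25 expected counts in HDAC3-deficient and 18 and 23 in control BM pDCs (log2 change -0.10 ± 0.50 SE, edgeR adjusted p = 0.887). No difference was detectable at this depth. In CD115-CDPs it was at 0.56 and 1.36 FPKM in HDAC3-deficient and at 0 and 0.34 FPKM in control libraries, with no test.

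Dusp6, the cytoplasmic phosphatase that is selective for ERK, fell in LMPPs and by less in BM pDCs. In HDAC3-deficient LMPPs it was at 49.1 and 30.7 FPKM, against 64.9 and 64.7 FPKM in controls (log2 change -0.73 ± 0.20 SE, limma adjusted p = 0.0185). Leaving out library 2 of the HDAC3-deficient LMPPs gave a change of -0.40 that was not called (adjusted p = 0.12). In HDAC3-deficient BM pDCs it was at 9.07 and 8.63 FPKM, against 11.4 and 13.3 FPKM in controls (log2 change -0.35 ± 0.11 SE, edgeR adjusted p = 0.0343), a call that was lost in 5 of 10 alternatives, among them DESeq2 (adjusted p = 0.12), and came to -0.24 without control library 2. In CD115-CDPs the order was the other way: HDAC3-deficient libraries held 20.6 and 20.2 FPKM, against 9.41 and 12.4 FPKM in controls, again without overlap, but the difference was not called (log2 change 0.89 ± 0.34 SE, limma adjusted p = 0.54). Dusp6 overlaps the long non-coding gene Gm34921 in the annotation (GRCm38.p6, chromosome 10, 99263231 to 99267489 for Dusp6), and no source used here says whether strand entered the counting, so reads of the 2 genes cannot be told apart.

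Dusp10, which acts on JNK and p38 and not on ERK, fell in BM pDCs. It was at 4.03 and 4.21 FPKM in HDAC3-deficient BM pDCs, against 8.70 and 8.57 FPKM in controls, and replicates differed by much less than the genotypes (0.477-fold, log2 change -0.93 ± 0.11 SE, edgeR adjusted p = 0.000694). In LMPPs it was at 1.48 and 1.42 FPKM in HDAC3-deficient libraries, against 2.30 and 2.59 FPKM in controls (log2 change -0.59 ± 0.29 SE, limma adjusted p = 0.15). In CD115-CDPs it was listed at 1.52 and 0 FPKM in HDAC3-deficient libraries, against 2.69 and 3.18 FPKM in controls (limma adjusted p = 0.574). Dusp10 was the single member whose HDAC3-deficient libraries lay below the controls in all 3 cell types, with a call in BM pDCs only. Over all genes tested, they lay below the controls for 48.2% in LMPPs, 28.4% in CD115-CDPs and 48.9% in BM pDCs. The share of all genes below in all 3 cell types was not counted.

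Spry1, a Sprouty adaptor that blocks RAS activation below receptor tyrosine kinases, had the largest change of the 10 genes in BM pDCs. It was at 0.96 and 1.47 FPKM in HDAC3-deficient BM pDCs, against 6.70 and 5.18 FPKM in controls, which rested on 38 and 60 expected counts against 279 and 212 (4.89-fold lower in mean FPKM, log2 change -2.20 ± 0.25 SE, edgeR adjusted p = 0.000576). In LMPPs it was at 10.6 and 6.75 FPKM in HDAC3-deficient libraries, against 12.9 and 14.5 FPKM in controls; the libraries did not overlap, and the difference missed the threshold (log2 change -0.66 ± 0.24 SE, limma adjusted p = 0.0564). In CD115-CDPs it was below the filter, at 1.58 and 0 FPKM in HDAC3-deficient and 0.93 and 0.57 FPKM in control libraries.

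Spry2, the related adaptor, was at 1.68 and 3.49 FPKM in HDAC3-deficient BM pDCs, against 1.26 and 1.09 FPKM in controls, opposite in direction to Spry1. The rise rested on 66 and 137 expected counts against 49 and 42 (log2 change 1.28 ± 0.37 SE, edgeR adjusted p = 0.0273), and without HDAC3-deficient library 2 it was no longer called and had a log2 change of 0.63 (adjusted p = 0.0876). In LMPPs Spry2 was at 8.46 and 5.65 FPKM in HDAC3-deficient libraries, against 11.5 and 11.6 FPKM in controls (log2 change -0.70 ± 0.24 SE, limma adjusted p = 0.0477). Leaving out library 2 of the HDAC3-deficient LMPPs gave -0.43, which was not called (adjusted p = 0.222). In CD115-CDPs it was at 4.93 and 18.2 FPKM in HDAC3-deficient libraries and at 3.41 and 5.35 FPKM in controls, so the high mean there came from library 2, the library that stood apart (limma adjusted p = 0.635).

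Spred1 and Spred2, which bring the RAS-inactivating protein neurofibromin to the membrane, both rose in BM pDCs. Spred2 was at 5.49 and 5.93 FPKM in HDAC3-deficient BM pDCs, against 2.43 and 2.66 FPKM in controls (log2 change 0.87 ± 0.13 SE, edgeR adjusted p = 0.00171). Its FPKM ratio of 2.24 was above its expected count ratio of 1.68, while the same ratios for Spred1 were 1.35 and 1.34. Spred1 was at 4.13 and 3.42 FPKM in HDAC3-deficient BM pDCs, against 2.62 and 2.96 FPKM in controls (log2 change 0.55 ± 0.13 SE, edgeR adjusted p = 0.0122), and its call was lost on the FPKM scale (limma adjusted p = 0.0697), on which the median of all genes lay at -0.15. Both genes were low in the progenitors: Spred1 ranged from 1.46 to 1.77 FPKM in HDAC3-deficient and from 1.5 to 1.65 FPKM in control LMPPs, and Spred2 did not exceed 0.52 FPKM in any LMPP library. Neither was called in CD115-CDPs, where Spred1 was at 2.12 and 2.52 FPKM in HDAC3-deficient and 1.83 and 2.10 FPKM in control libraries, and Spred2 was at 2.40 and 0 FPKM in HDAC3-deficient and 1.38 and 0.63 FPKM in control libraries.

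**Figure D2:**
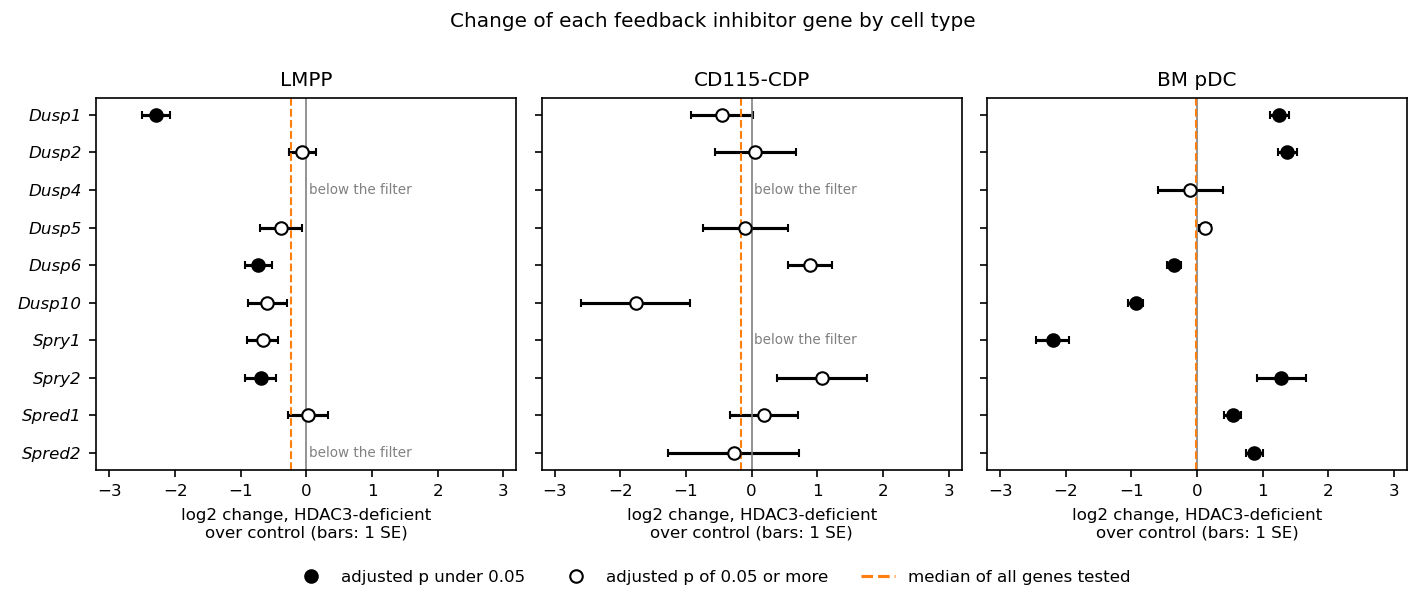
Log2 change of each gene in HDAC3-deficient over control libraries (horizontal axis, point with 1 SE) for LMPPs, CD115-CDPs and BM pDCs, with filled points at an adjusted p below 0.05 and the dashed line at the median of all genes tested. Dusp1 lies at -2.29 in LMPPs and 1.26 in BM pDCs, and no point is filled in CD115-CDPs.

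In CD115-CDPs the log2 changes of several members depended on which HDAC3-deficient library was left out. The HDAC3-deficient libraries correlated at r = 0.87 across genes, against 0.98 between the controls. Each fit with a lone library assumes that it varies as the controls do, so only the size of the change is given. Dusp6 came to 0.90 without library 2 and 0.88 without library 1. In the same order, Spry2 came to 0.18 and 1.97, Spred1 to 0.09 and 0.30, and Dusp10 to -0.76 and -2.78. The sign changed for Dusp1 (0.08 and -0.99), Dusp2 (0.95 and -0.83) and Dusp5 (0.70 and -0.89). Spred2 came to 0.99 without library 2 and was below the filter without library 1. The share of all genes that kept their sign in both fits was not counted. Both fits use the same controls. The HDAC3-deficient libraries both exceeded the controls for 2 of 8 members (Dusp6 and Spred1) and for 15.2% of all genes, and were both below them for Dusp10 and for 28.4% of all genes.

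In BM pDCs the HDAC3-deficient libraries both exceeded the controls in FPKM for 5 of 10 members and for 27.2% of all genes, and were both below them for 3 of 10 and for 48.9% of all genes. On the FPKM scale limma called 1881 genes as higher and 3696 as lower, in place of 2753 and 2858 by counts, with 4 and 3 members among them. Dusp1, Dusp2, Dusp10, Spry1 and Spred2 kept their calls in all 10 alternatives tried in BM pDCs, and Dusp1 kept its call in all 13 tried in LMPPs. Spry2 and Spred1 were no longer called when either control library was left out (adjusted p = 0.0933 and 0.133 for Spry2, and 0.104 and 0.0624 for Spred1, without control 1 and control 2).

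The make-up of the transcripts of the 6 Dusp members shifted accordingly. Dusp1 made up 52.8% and 47.7% of the summed FPKM of the 6 Dusp genes in HDAC3-deficient LMPPs, against 82.8% and 78.2% in control LMPPs. In HDAC3-deficient BM pDCs it made up 48.4% and 54.2%, against 33.8% and 34.3% in control BM pDCs, where Dusp5 was the most abundant with 52.7% and 50.4%. The summed level of the 6 genes was 449 and 323 FPKM in HDAC3-deficient LMPPs, against 1135 and 1189 FPKM in controls, and 315 and 359 FPKM in HDAC3-deficient BM pDCs, against 242 and 228 FPKM in controls. Dusp1 and Dusp5 thus accounted for most of the summed FPKM of the 6 Dusp members in BM pDCs of either genotype. Other Dusp genes were left out of these sums, among them Dusp11 and Dusp7, with means of 24.9 and 19.4 FPKM in control BM pDCs.

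In BM pDCs the transcripts of the 4 Sprouty and Spred members changed in make-up but little in sum. Spred3, outside the 10 genes, was left out of this sum. It was higher in HDAC3-deficient BM pDCs, at 5.18 and 6.75 FPKM against 1.53 and 1.81 FPKM in controls. The summed level of the 4 members was 12.3 and 14.3 FPKM in HDAC3-deficient BM pDCs, against 13.0 and 11.9 FPKM in controls, which overlapped. Within it, Spry1 made up 7.83% and 10.3% in HDAC3-deficient BM pDCs, against 51.5% and 43.6% in controls, and the Spred genes together made up 78.5% and 65.3%, against 38.8% and 47.3%. In LMPPs the sum was lower, at 21.3 and 14.1 FPKM in HDAC3-deficient libraries against 26.2 and 27.9 FPKM in controls, with Spry1 at 49.6% and 47.7% against 49.4% and 52.0%.

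**Figure D3:**
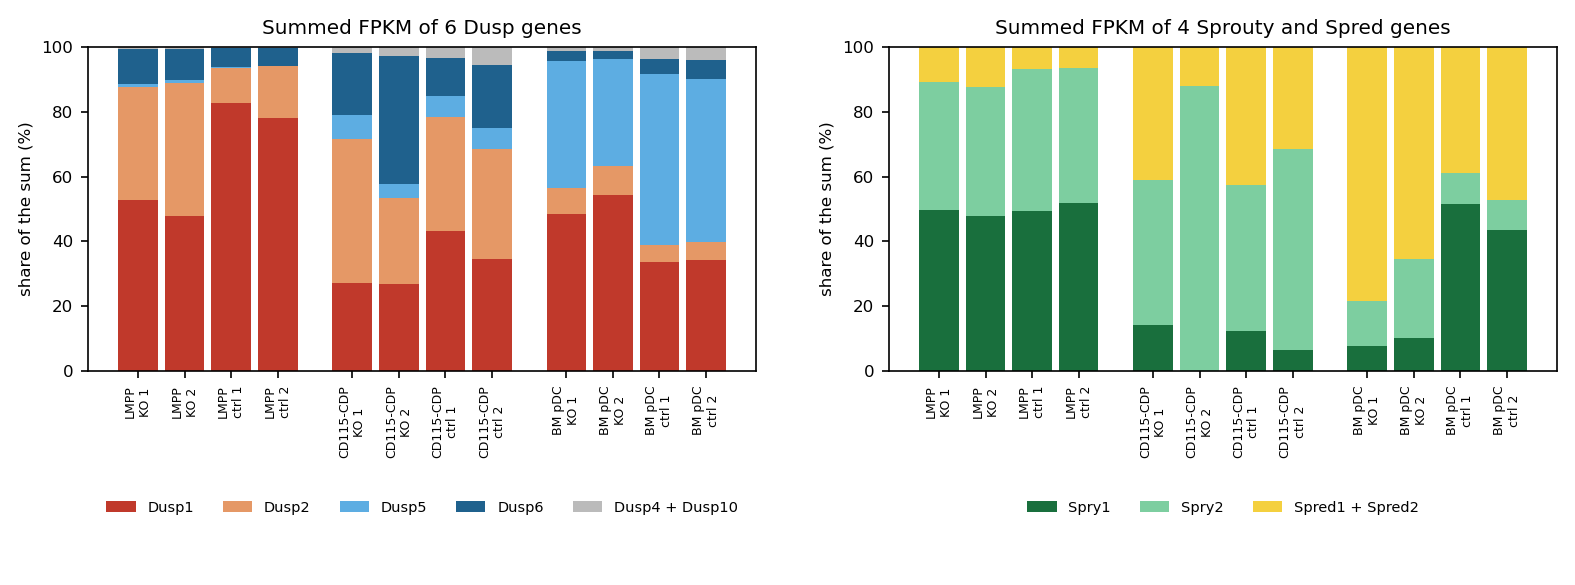
Share of each gene (percent) in the summed FPKM of the 6 Dusp genes (left) and the 4 Sprouty and Spred genes (right), a bar per library, with HDAC3-deficient (KO) libraries left of the controls (ctrl) in each cell type. The Dusp1 share is smaller in HDAC3-deficient than in control LMPPs and larger in HDAC3-deficient than in control BM pDCs, and the Spry1 share in BM pDCs is 7.83% and 10.3% against 51.5% and 43.6%.

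Across cell types the genes had different places of highest expression. By mean FPKM, Dusp1, Dusp2, Dusp6 and Spry1 were highest in control LMPPs, Dusp5 and Dusp10 in control BM pDCs, Spred1 and Spred2 in HDAC3-deficient BM pDCs, and Spry2 and Dusp4 in HDAC3-deficient CD115-CDPs. The first places of Spry2, Dusp4, Dusp2 and Dusp5 overlapped with the next group, and that of Spry2 came from the library that stood apart, since the other library held 4.93 FPKM and every LMPP library 5.65 to 11.6 FPKM. For Dusp1 the order was control LMPPs, HDAC3-deficient LMPPs, HDAC3-deficient BM pDCs (174 FPKM), control BM pDCs (79.9 FPKM), control CD115-CDPs (28.3 FPKM) and HDAC3-deficient CD115-CDPs (21.4 FPKM). The HDAC3-deficient LMPP and BM pDC libraries overlapped in that order, at 154.0 to 237 and 153 to 194 FPKM, and so did the CD115-CDP groups. After rescaling each library to the same summed FPKM, HDAC3-deficient BM pDCs came before HDAC3-deficient LMPPs for Dusp1, again with overlap. For Dusp6 the order ran through control LMPPs (64.8 FPKM), HDAC3-deficient LMPPs (39.9 FPKM), HDAC3-deficient CD115-CDPs (20.4 FPKM), control BM pDCs (12.3 FPKM), control CD115-CDPs (10.9 FPKM) and HDAC3-deficient BM pDCs (8.85 FPKM), of which only control BM pDCs and control CD115-CDPs overlapped as neighbours. The tables of the cell types were normalised separately, and LMPPs and CD115-CDPs were lysed in another buffer than BM pDCs, so cell type and protocol cannot be told apart in these levels and no test was made.

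Dusp1 moved together with the transcripts of handling stress and immediate early response, which were summed over 12 genes. Their sum was 2860 and 2132 FPKM in HDAC3-deficient LMPPs, against 6696 and 7350 FPKM in controls, with 11 of 12 genes falling and 0 rising (9 falling after median ratio scaling). In BM pDCs it was 3705 and 4145 FPKM in HDAC3-deficient libraries, against 2790 and 2773 FPKM in controls, with 8 of 12 rising and 0 falling. In CD115-CDPs it was 1064 and 1159 FPKM in HDAC3-deficient libraries, against 1069 and 1002 FPKM in controls, with 0 of 11 tested genes called. The chaperone gene Hsp90aa1 was at 567 and 914 FPKM in HDAC3-deficient CD115-CDPs, against 345.1 and 435 FPKM in controls. Without it, the sum was 498 and 245 FPKM in HDAC3-deficient CD115-CDPs, against 724 and 567 FPKM in controls. The median log2 change of all 11 tested genes of the list, Hsp90aa1 included, was -1.13. The inducible chaperone gene Hspa1a was at 30.1 and 14.7 FPKM in HDAC3-deficient LMPPs, against 865 and 880.3 FPKM in control LMPPs, and at 6.33 and 8.80 FPKM in HDAC3-deficient BM pDCs, against 4.08 and 4.36 FPKM in controls. The part of handling in the levels of Dusp1 was not tested.

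Over the 12 libraries, after centring each cell type on its own mean, the genes most like Dusp1 among 9429 genes were Ppp1r15a (Pearson r = 0.97), Zfand5 (0.97) and Lysmd1 (0.96). The genes most like Dusp6 were Usp54 (0.94), Etv6 (0.92) and Rpap2 (0.91). These values describe 12 libraries that share 6 group means, and Spry1 could not be placed because it was below the filter in CD115-CDPs.

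Transcripts known to rise with ERK activity, other than the members, moved with Dusp1 in direction. In LMPPs, 7 of 13 tested fell and 1 rose, with a median log2 change of -0.67 (4 fell and 2 rose after median ratio scaling), and in BM pDCs 10 of 16 rose and 2 fell, with a median of 0.92. This list shares 6 genes with the handling list. Over all genes tested, 4.31% rose and 18.8% fell in LMPPs, and 21.6% rose and 22.5% fell in BM pDCs. These shares stand beside the counts of each list. The transcription factor gene Egr1 was at 19.1 and 10.2 FPKM in HDAC3-deficient LMPPs, against 188 and 239 FPKM in control LMPPs (log2 change -3.87 ± 0.23 SE, limma adjusted p = 2.4e-07), and the AP-1 genes Jun (-3.30) and Fos (-2.30) also fell there. Egr1 was at 29.9 and 41.4 FPKM in HDAC3-deficient BM pDCs, against 10.4 and 10.9 FPKM in controls. The exception in LMPPs, Ccnd1, which encodes a G1 cyclin and is named here after its value was seen, was at 14.9 and 15.1 FPKM in HDAC3-deficient libraries, against 4.0 and 3.70 FPKM in controls.

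In BM pDCs the ERK-responsive genes with the smallest p were Myc, Mcl1 and Etv5. The growth regulator Myc was at 14.6 and 15.0 FPKM in HDAC3-deficient libraries, against 2.63 and 2.90 FPKM in controls (log2 change 2.55 ± 0.12 SE, edgeR adjusted p = 3.29e-05). The survival gene Mcl1 was at 255 and 272 FPKM in HDAC3-deficient BM pDCs, against 105 and 107 FPKM in controls. Etv5, an ETS factor gene that follows ERK signalling, was at 10.9 and 9.35 FPKM in HDAC3-deficient BM pDCs, against 3.80 and 4.23 FPKM in controls, while Dusp6, another ERK-responsive gene, fell. In CD115-CDPs Myc was at 405 and 303 FPKM in HDAC3-deficient libraries, against 115 and 155 FPKM in controls, and was not called (limma adjusted p = 0.346).

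Of 16 other Dusp, Sprouty and Spred genes, 15 had a row in each table, though not the same 15, and 13 had a row in all 3. In LMPPs 5 of 10 tested fell and 0 rose, among them Dusp3, Dusp23 and Dusp28 (2 fell after median ratio scaling), and in BM pDCs 4 of 12 rose and 3 fell. Spred3 was at 5.18 and 6.75 FPKM in HDAC3-deficient BM pDCs, against 1.53 and 1.81 FPKM in controls (log2 change 2.21 ± 0.23 SE, edgeR adjusted p = 0.00038), so that all 3 Spred genes rose there. Dusp3, an atypical phosphatase, was at 2.38 and 2.96 FPKM in HDAC3-deficient BM pDCs, against 0.92 FPKM in each control, and at 1.51 and 1.47 FPKM in HDAC3-deficient LMPPs, against 4.06 and 3.22 FPKM in controls, the same opposite order as Dusp1. Its call in LMPPs was lost after median ratio scaling (adjusted p = 0.0512). Dusp28 was lower in both cell types, at 3.92 and 5.96 FPKM in HDAC3-deficient LMPPs, against 12.4 and 11.8 FPKM in controls, and at 7.0 and 5.78 FPKM in HDAC3-deficient BM pDCs, against 13.2 FPKM in each control.

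Among the kinases that these inhibitors act on, 5 of 18 tested genes of the RAS to ERK cascade fell in LMPPs, with a median of -0.30, close to that of all genes, and 0 were called after median ratio scaling. They included the adaptor gene Gab2, at 2.77 and 2.46 FPKM in HDAC3-deficient LMPPs, against 4.80 and 6.48 FPKM in controls. In BM pDCs 4 of 20 rose and 5 fell, with a median of -0.08, where 21.6% of all genes tested rose and 22.5% fell. The MEK gene Map2k1 was at 20.5 and 18.8 FPKM in HDAC3-deficient BM pDCs, against 33.0 and 32.8 FPKM in controls, and the scaffold gene Ksr1 was at 0.97 and 0.96 FPKM in HDAC3-deficient BM pDCs, against 0.27 and 0.30 FPKM in controls.

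Of the JNK and p38 kinases and the kinases above them, 0 of 12 were called in LMPPs by limma, with 4 at an unadjusted p below 0.05. In BM pDCs 3 of 12 rose and 2 fell, with a median of 0.03, where 21.6% of all genes tested rose and 22.5% fell. Mapk14, which encodes p38 alpha, was at 97.3 and 101 FPKM in HDAC3-deficient BM pDCs, against 54.4 and 54.9 FPKM in controls (1.81-fold, edgeR adjusted p = 0.000206), and Map2k3, a kinase that activates p38, rose with it. Map2k6, the other main p38-activating kinase, fell to 3.36 and 2.17 FPKM in HDAC3-deficient BM pDCs, against 8.38 and 9.16 FPKM in controls.

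Other inhibitors between receptors and ERK were mixed. In BM pDCs 8 of 17 rose and 5 fell, with a median of 0.34, and in LMPPs 2 of 14 fell, Dab2ip and Dok2, of which neither was called after median ratio scaling. Rasa3, a RAS-inactivating protein, was at 138 and 144 FPKM in HDAC3-deficient BM pDCs, against 59.7 and 54.3 FPKM in controls, and the adaptor gene Dok3 was at 13.4 and 23.1 FPKM in HDAC3-deficient BM pDCs, against 5.50 and 3.52 FPKM in controls. Of the receptor tyrosine kinases, Kit was at 8.52 and 9.77 FPKM in HDAC3-deficient BM pDCs, against 1.77 and 1.54 FPKM in controls, and at 87.3 and 67.5 FPKM in HDAC3-deficient LMPPs, against 122 and 138 FPKM in controls. In all, 3 of 5 tested receptor genes fell in LMPPs (1 fell after median ratio scaling), and 2 of 6 rose and 1 fell in BM pDCs. With DESeq2, 3 of 7 tested receptor genes rose and 0 fell in BM pDCs. In CD115-CDPs 0 of 74 tested genes of the 6 lists were called by limma, with 10 at an unadjusted p below 0.05.

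**Figure D4:**
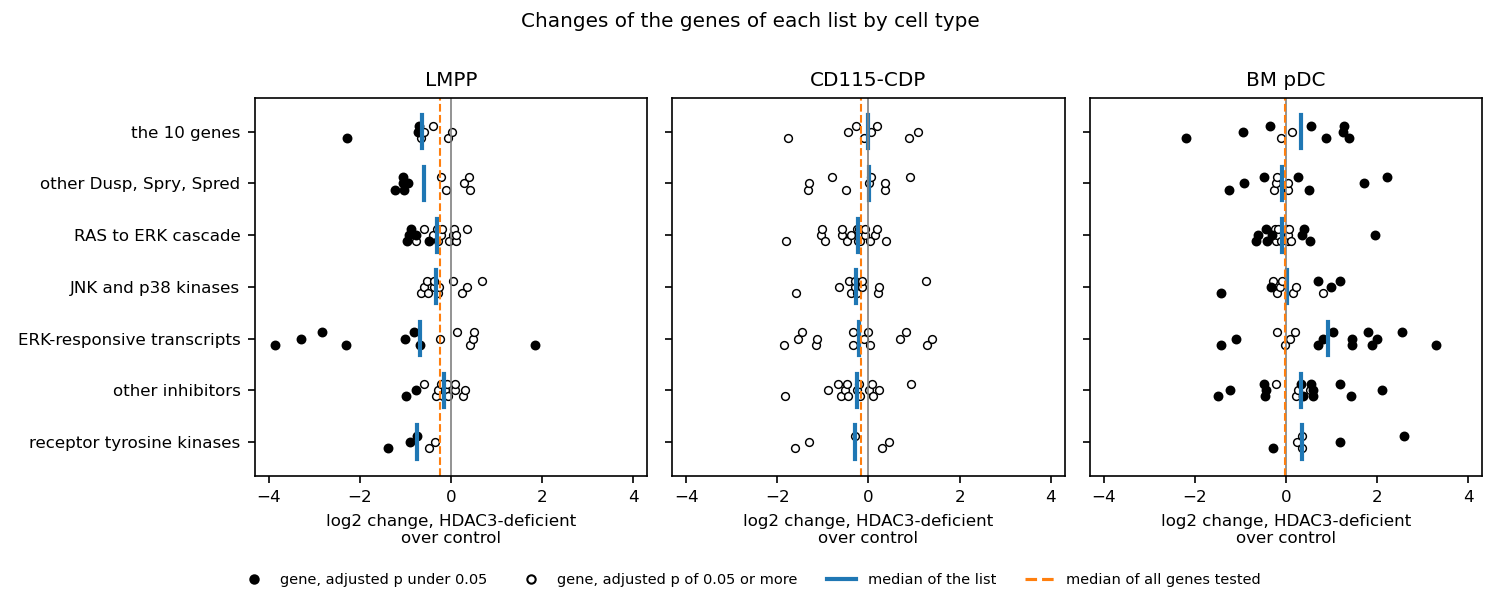
Log2 change of each tested gene (point, filled at an adjusted p below 0.05) in HDAC3-deficient over control libraries (horizontal axis) for the 10 genes and 6 lists of related genes, by cell type, with the median of each list as a bar and that of all genes as a dashed line. The median of the ERK-responsive transcripts lies at -0.67 in LMPPs and at 0.92 in BM pDCs.

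Other cell type markers moved with genotype and are given beside these results. In HDAC3-deficient BM pDCs 5 of 10 pDC markers fell and 0 rose. Of 8 monocyte and macrophage markers, 4 fell and 1 rose, Csf1r, at 11.5 and 14.3 FPKM against 7.72 and 4.79 FPKM in controls. This second list summed to 635 and 637 FPKM in HDAC3-deficient and 1434 and 1420 FPKM in control libraries. Ly6c2, which pDCs also express, carried that sum; without it, the list held 95.7 and 146 FPKM in HDAC3-deficient and 129 and 107 FPKM in control libraries, which overlapped. Over all genes tested in BM pDCs, 21.6% rose and 22.5% fell. Beside these shares, 3 of 7 conventional dendritic cell markers rose and 1, Cd209a, fell. Of the common dendritic cell progenitor markers, 3 of 6 rose and 1, Tcf4, fell. LMPP markers rose for 2 of 6, as did erythroid markers, and Kit was counted as rising in both progenitor lists. The remaining genes of these lists, among them Xcr1, H2-Ab1, Hba-a1 and Alas2, were not called. Of the markers that rose, Clec9a was at 208 and 196.3 FPKM in HDAC3-deficient BM pDCs, against 46.3 and 51.2 FPKM in controls. Id2 was at 59.5 and 103 FPKM in HDAC3-deficient BM pDCs, against 7.54 and 7.77 FPKM in controls. The progenitor marker Cd34 was at 4.05 and 4.85 FPKM in HDAC3-deficient BM pDCs, against 1.81 and 1.67 FPKM in controls, and the erythroid gene Car1 was at 34.5 and 27.8 FPKM, against 4.29 and 4.77 FPKM in controls. Neutrophil and granule markers summed to 2674 and 2878 FPKM in HDAC3-deficient LMPPs, against 1859 and 1950 FPKM in controls, although 6 of the 8 genes fell and 1 rose, and to 2189 and 1670 FPKM in HDAC3-deficient CD115-CDPs, against 1185 and 1007 FPKM in controls. Mpo carried this sum in both cell types, and in LMPPs the order of the sum was that of Mpo alone. Mpo was at 2516 and 2722 FPKM in HDAC3-deficient LMPPs, against 1144 and 1395 FPKM in controls. The remaining 7 genes held 158 and 156 FPKM in HDAC3-deficient LMPPs, against 714.9 and 555.5 FPKM in controls. The same 7 genes held 477 and 257 FPKM in HDAC3-deficient CD115-CDPs, against 617.7 and 264 FPKM in controls. The median log2 change of the 8 genes, Mpo included, was -3.58 in LMPPs and -0.60 in CD115-CDPs. The pDC markers summed to 1256 and 583 FPKM in HDAC3-deficient CD115-CDPs, against 3258 and 2506 FPKM in controls. T and NK cell markers summed to at most 4.16 FPKM in any library. The part of these markers in the changes of the 10 genes was not tested.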

How the data were processed

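RNA-seq was made from 12 sorted mouse samples. The processing notes name Bowtie2, RSEM and mm10, with no versions. The authors deposited FPKM values for all cell types and RSEM expected counts for BM pDCs; 4 columns of TPM were not used. For LMPPs and CD115-CDPs, genes reaching 1 FPKM in 2 or more libraries were kept, and log2(FPKM + 0.5), which understates changes of low genes, was fitted with limma 3.58.1 with a variance trend. BM pDC expected counts were rounded and fitted with edgeR 4.0.16 (filterByExpr, TMM, quasi-likelihood); DESeq2 1.42.0 was an alternative. Each cell type was fitted alone in R 4.3.3, with Benjamini-Hochberg adjustment over all tested genes and calls below 0.05. The fits were tested on simulated data. The members and lists were chosen with earlier results of these data known. Named were the 10 members, in each list up to 3 genes by smallest p, and the 3 genes most like Dusp1, Dusp6 and Spry1. CD115-CDP rows were matched by gene ID. The age of the animals is not given in the sources used here. A gene that this rule picks is not reported here.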

Additional observations from a re-analysis of the deposited data

Results flagged for a closer look

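For 3 members the HDAC3-deficient libraries all lay on one side of the controls in a cell type and all on the other side in another. Such separation was common over all genes tested. Both HDAC3-deficient libraries were below the controls for 48.2% in LMPPs, 28.4% in CD115-CDPs and 48.9% in BM pDCs. Both were above for 17.6%, 15.2% and 27.2%. The share of all genes that changed sides was not counted. Dusp1 had a log2 change of -2.29 in LMPPs and 1.26 in BM pDCs. Spry2 had a log2 change of -0.70 in LMPPs and 1.28 in BM pDCs. Dusp6 had a log2 change of 0.89 in CD115-CDPs, which was not called, beside -0.73 in LMPPs and -0.35 in BM pDCs. The difference between cell types was not tested, because the tables were normalised separately and the tests rest on different units.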

How the results depend on the processing

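Calls of the members in LMPPs fell to 1, Dusp1, without a filter on low values, after median ratio scaling and without a variance trend, and ranged from 1 to 4 when a replicate was left out; quantile normalization kept Dusp1 and Dusp6. All genes called in LMPPs came to 501 without a filter and 1651 after quantile normalization, and to 846 to 4016 when a replicate was left out. The sign of Dusp2 in LMPPs turned after median ratio scaling (0.19), with -0.38 to 0.26 when a replicate was left out, and that of Dusp5 turned after quantile normalization (0.061), with -0.90 to 0.13; Spred1 ranged from -0.081 to 0.13. In CD115-CDPs, leaving out a replicate gave 0 to 2 members that rose, 0 to 3 that fell and 1 to 5056 genes called, and quantile normalization gave 2 genes. Signs there turned for Dusp5 after median ratio scaling (0.015) and quantile normalization (0.20) and for Spred2 after quantile normalization (0.68); leaving out a replicate gave -0.99 to 0.080 for Dusp1, -0.83 to 0.95 for Dusp2, -0.89 to 0.70 for Dusp5 and -0.64 to 0.99 for Spred2. In BM pDCs, leaving out a replicate gave 3 to 5 members that rose and 2750 to 7005 genes called, Dusp4 ranged from -0.93 to 0.44, and Dusp5 came to -0.003 with limma on FPKM. The cause was not tested. Replicate numbers are shared between genotypes without a stated pairing; their deviations correlated at -0.10 in LMPPs, 0.24 in CD115-CDPs and -0.24 in BM pDCs. With the replicate block, 393 genes but 0 members were called in CD115-CDPs, Dusp6 lost its call in BM pDCs (adjusted p = 0.0517, edgeR), and no other call of a member changed. With crossed numbers, chosen after seeing the data, 3510 genes and 4 members were called in LMPPs and 5694 genes and 8 members in BM pDCs. Over all alternatives, 80 of 101 values of members in LMPPs, 76 of 91 in CD115-CDPs and 84 of 99 in BM pDCs kept their sign and their side of the threshold.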
